A study of Mus musculus with 6 samples.

Results

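Chemokines are small secreted proteins that draw leukocytes along concentration gradients, and their receptors are the seven-pass membrane proteins through which the cells respond. The genes described here are all those on the array with a symbol of Ccl, Cxcl, Cx3cl, Xcl, Ccr, Cxcr, Cx3cr or Xcr followed directly by a digit, taken from probe sets that name exactly 1 gene. They number 50 of the 18193 genes that a probe set of the array names alone, 33 ligands and 17 receptors, read by 78 of 45101 probe sets. Another 4 probe sets name such a gene together with other genes and were left out. Where several probe sets read a gene, the one with the highest mean signal over the 6 arrays stands for it.

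RNA of whole colon was hybridised to Affymetrix MOE430 2.0 mouse arrays, 3 for wild type (NHE3+/+) and 3 for mice deficient in NHE3 (NHE3-/-), a sodium-hydrogen exchanger of the gut epithelium. The mice were 6 to 8 weeks old in both groups, and no treatment is listed. The sources used here do not give how the allele was made, the strain, the sex or the number of animals behind an array. The p-values therefore cover only the variation among these 6 arrays, part of which, or within NHE3+/+ all of which, may be technical. The comparison asks which chemokine system transcripts differ in colon that lacks NHE3.

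Ligands with a C-X-C spacing of their first cysteines include the neutrophil attractants, while C-C ligands act mainly on monocytes, lymphocytes, eosinophils and dendritic cells. The colonic epithelium secretes several of them itself, among them Ccl20, which draws CCR6-bearing cells to lymphoid follicles, and Ccl28, which draws antibody-secreting cells to mucosa. Homeostatic ligands such as Cxcl13 and Cxcl12 organise lymphoid tissue and hold cells in place. Many of the inflammatory ligands are targets of NF-kappaB.

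The tissue carried its defining markers. All 12 colonic epithelium markers lay above the low-signal filter, and the colonocyte carbonic anhydrase Car1 read between 33084 and 50059 on every array. Array medians ran from 97.8 to 121.4. Xist, the RNA of the inactive X chromosome, read 2639 and 1929 on NHE3-/- arrays 1 and 2 and 12.3 on NHE3-/- array 3. On the NHE3+/+ arrays it read at most 8. Sex, which the sources do not give, thus appears to be partly confounded with genotype. The called genes are therefore also given with NHE3-/- array 3 as the only NHE3-/- array. In those fits the spread comes from the NHE3+/+ arrays alone, and array 3 is assumed to vary like them. RNA of the whole wall was measured, and fewer cells of a type and less RNA per cell cannot be told apart.

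Of 33 ligands, 23 passed the filter on low signal and were tested. In NHE3-/- colon 6 rose (Cxcl1, Cxcl2, Ccl20, Ccl8, Cxcl16 and Ccl28), 2 fell (Ccl6 and Ccl9) and 15 did not pass. Those that rose were 26.1% of the ligands tested, where 4.97% of all 27024 probe sets tested were called higher. Those that fell were 8.70%, close to the 6.24% of all probe sets called lower. All NHE3-/- arrays lay above all NHE3+/+ arrays for 9 ligands (39.1%, beside 12.2% of all probe sets) and below them for 2 (8.70%, beside 20.1% of all probe sets). The median log2 fold change of the ligands tested was 0.32, beside -0.10 over all probe sets tested. These counts are a description: 3 of the ligands tested (Cxcl2, Ccl7 and Cxcl17) had a mean below the filter in NHE3+/+ colon, and 1 (Xcl1) in NHE3-/- colon, so they entered the test through the other group. The split of all calls depended on scaling, with 1342 higher and 1685 lower as deposited and 1595 higher and 738 lower once array medians were set equal.

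Of 17 receptors, 9 passed the filter. By limma 0 rose, 1 fell (Cxcr4) and 8 did not pass; the 1 that fell is 11.1% of those tested, beside 6.24% of all probe sets called lower. The median log2 fold change of the receptors tested was -0.09. Only 1 receptor, Cxcr4, had an unadjusted limma p under 0.05. A difference between ligands and receptors was not tested.

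**Figure D1:**
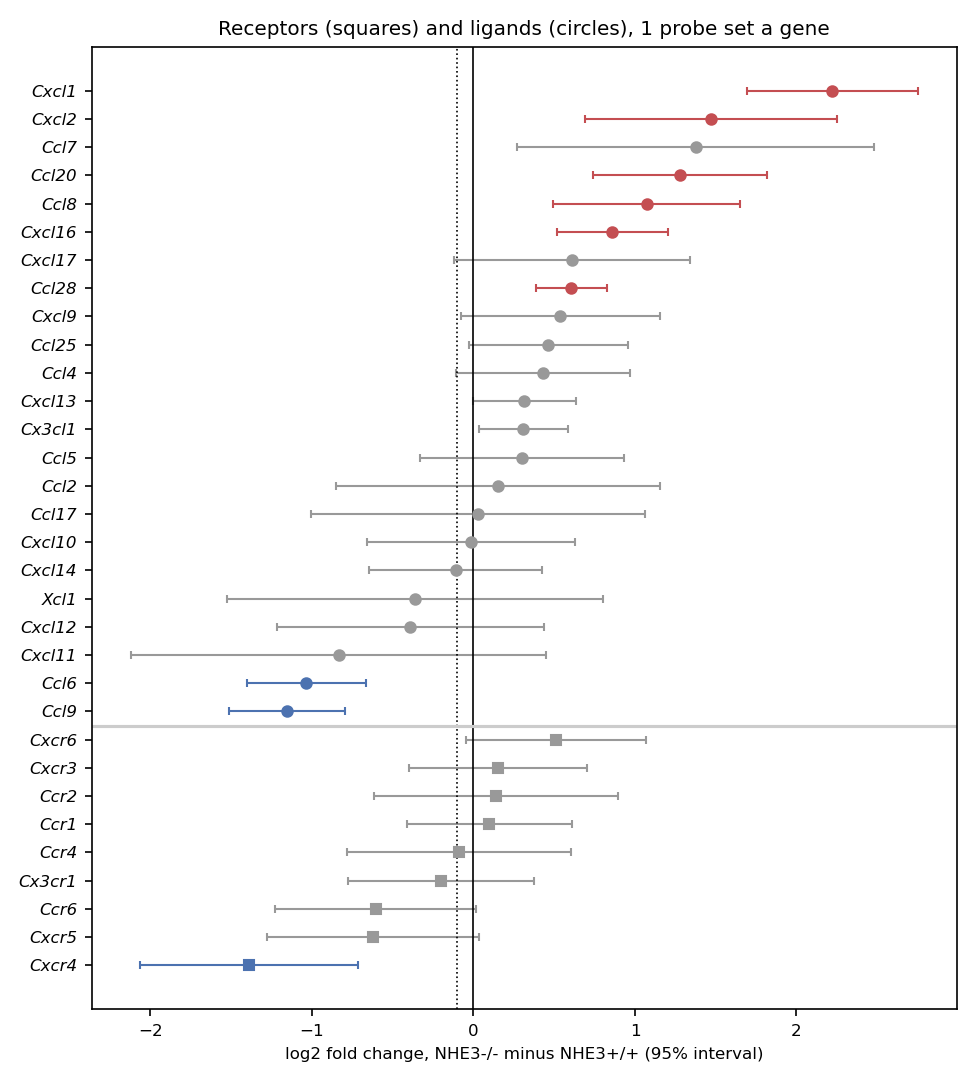
Log2 fold change of NHE3-/- minus NHE3+/+ for the 23 ligands (circles) and 9 receptors (squares) tested, with 95% intervals from limma, 3 arrays a genotype. Red marks genes called higher, blue genes called lower and grey genes not called; the solid line is 0 and the dotted line the median of all probe sets tested, -0.10.

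By the probe set of highest mean signal, the largest increases were in Cxcl1 and Cxcl2, which bind CXCR2 and attract neutrophils. The rank of Cxcl1 depends on the choice of probe set. Cxcl1 read 133.2, 265.6 and 127.1 on NHE3+/+ arrays 1, 2 and 3 and 795.1, 863.7 and 1029.7 on NHE3-/- arrays 1, 2 and 3. Every NHE3-/- array stood well above every NHE3+/+ array, with means of 175 ± 78.3 and 896 ± 121 (SD, 3 arrays each). The log2 fold change was 2.22 (SE 0.24, adjusted p = 0.000267), and 2.42 with NHE3-/- array 3 alone. Both other Cxcl1 probe sets were called as well, but the size differed among the 3. The one of lowest signal gave 2.74 (SE 0.27), from 66.2, 163.3 and 69.3 to 671.8, 914.0 and 824.8. The remaining one gave 1.25 (SE 0.20), from 210.3, 288.9 and 361.2 to 712.6, 604.9 and 834.6. The array's naming marks it as a probe set that may cross-hybridise. The naming of the brightest, which gave 2.22, likewise marks a probe set that several transcripts may share. On each of the 3 the genotypes did not overlap.

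Cxcl2 was dim in wild type, at 48.9, 7.1 and 24.9, and read 110.2, 133.3 and 127.3 in NHE3-/- colon. The groups did not overlap, and the NHE3-/- arrays lay close together. The log2 fold change was 1.47 (SE 0.35, adjusted p = 0.0233), on a scale that understates the change of dim transcripts. The call rested on few arrays: it was lost without NHE3+/+ array 2 (1.20, adjusted p = 0.0603) or array 3 (1.48, adjusted p = 0.0621), and without any one NHE3-/- array, or with array 3 alone, the gene fell below the filter and was not tested.

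The other neutrophil attractants of this group were at the floor. Cxcl3 read 19.6, 23.9 and 23.4 in NHE3+/+ and 20.4, 16.1 and 55.3 in NHE3-/- colon, and Cxcl5 read 57.1, 49.9 and 34.4 and then 34.3, 95 and 26.9. Neither passed the filter, and their groups overlapped. Their receptor Cxcr2 also read low, at 24.4, 37.4 and 22.6 and then 9.1, 60.2 and 20.8. Neutrophil markers were given with these ligands: of 10 on the array 3 passed the filter and 2 rose, beside 4.97% of all probe sets. Those 2 were S100a8, a calprotectin subunit, and Ltf, lactoferrin, both of which epithelium can also make. Both had a mean below the filter in NHE3+/+ colon and entered the test through the NHE3-/- arrays. S100a8 read 59.0, 46.2 and 41.2 in NHE3+/+ and 3034, 717.7 and 1356 in NHE3-/- colon. The summed marker signal ran from 374.9 to 564.6 in NHE3+/+ and from 1444 to 3888 in NHE3-/- colon. Most of the NHE3-/- sum came from S100a8 and Ltf, so the sum does not stand for the other markers. Of the 7 markers below the filter, beside 12.2% of the probe sets tested, 2 were higher without overlap. These were S100a9, at 30.1, 41.1 and 28.1 and then 146.8, 78.2 and 50.6, and Mmp8, at 15.1, 22.4 and 10.5 and then 33.5, 22.6 and 60.5. The other 5, which include Mpo, Elane, Camp and Csf3r, overlapped between genotypes, as did Ngp, the third marker tested. Their part in the Cxcl1 and Cxcl2 difference was not tested.

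Cxcl1, Cxcl2 and Cxcl3 lie in 1 ligand cluster on chromosome 5 with Cxcl5 and Cxcl15. Cxcl1 and Cxcl2 are next to each other among protein-coding genes, and Ppbp and Pf4 lie between Cxcl5 and Cxcl3. Of the genes that fit the symbol rule, the cluster thus held Cxcl1 and Cxcl2 as tested and called higher, and 3 below the filter. Pf4, a chemokine outside that rule, was tested by limma and not called (0.31, adjusted p = 0.370), and Ppbp was below the filter. The 250 bases before the start of the Cxcl1, Cxcl2 and Cxcl3 genes are shown because Cxcl1 and Cxcl2 rose while Cxcl3 stayed near the floor; they are from RefSeq, build GRCm38.p6, + strand, 5′ to 3′, and capitals mark matches on either strand to an NF-kappaB type motif, GGG followed by any 3 bases and TTCC.
Cxcl1, chr5:90890995-90891244: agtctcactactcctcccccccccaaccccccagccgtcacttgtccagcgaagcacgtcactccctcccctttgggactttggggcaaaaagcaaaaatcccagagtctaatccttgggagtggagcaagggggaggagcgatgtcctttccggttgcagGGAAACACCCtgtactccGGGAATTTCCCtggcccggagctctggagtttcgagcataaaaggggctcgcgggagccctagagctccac
Cxcl2, chr5:90903649-90903898: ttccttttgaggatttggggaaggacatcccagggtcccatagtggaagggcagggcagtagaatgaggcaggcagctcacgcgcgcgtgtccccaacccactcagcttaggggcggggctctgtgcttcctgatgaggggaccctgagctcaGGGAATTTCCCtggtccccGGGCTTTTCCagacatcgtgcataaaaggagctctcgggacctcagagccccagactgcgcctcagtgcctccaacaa
Cxcl3, chr5:90785851-90786100: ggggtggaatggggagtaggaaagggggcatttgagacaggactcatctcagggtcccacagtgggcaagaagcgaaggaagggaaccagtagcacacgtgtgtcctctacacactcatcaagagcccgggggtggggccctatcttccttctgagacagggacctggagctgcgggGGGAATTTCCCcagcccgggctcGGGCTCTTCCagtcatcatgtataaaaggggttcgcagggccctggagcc
All 3 hold GGGAATTTCC, beginning 71, 97 and 73 bases before the start, and the letters that begin 1 base later, GGAATTTCCC, match on the other strand. Cxcl2 and Cxcl3 each hold another forward match, GGGCTTTTCC at 78 bases and GGGCTCTTCC at 50 bases, and Cxcl1 an other-strand match, GGAAACACCC at 89 bases. The letters stand before the start of Cxcl3, which did not pass the filter, as well as before those that rose. The motif was in 5.56% of 32851 RefSeq promoter windows of 300 bases (250 before to 50 after a start) and in 7 of 26 windows of 23 ligands. RefSeq windows matched 37 of the 50 genes. A match describes the letters and does not show a binding site.

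**Figure D2:**
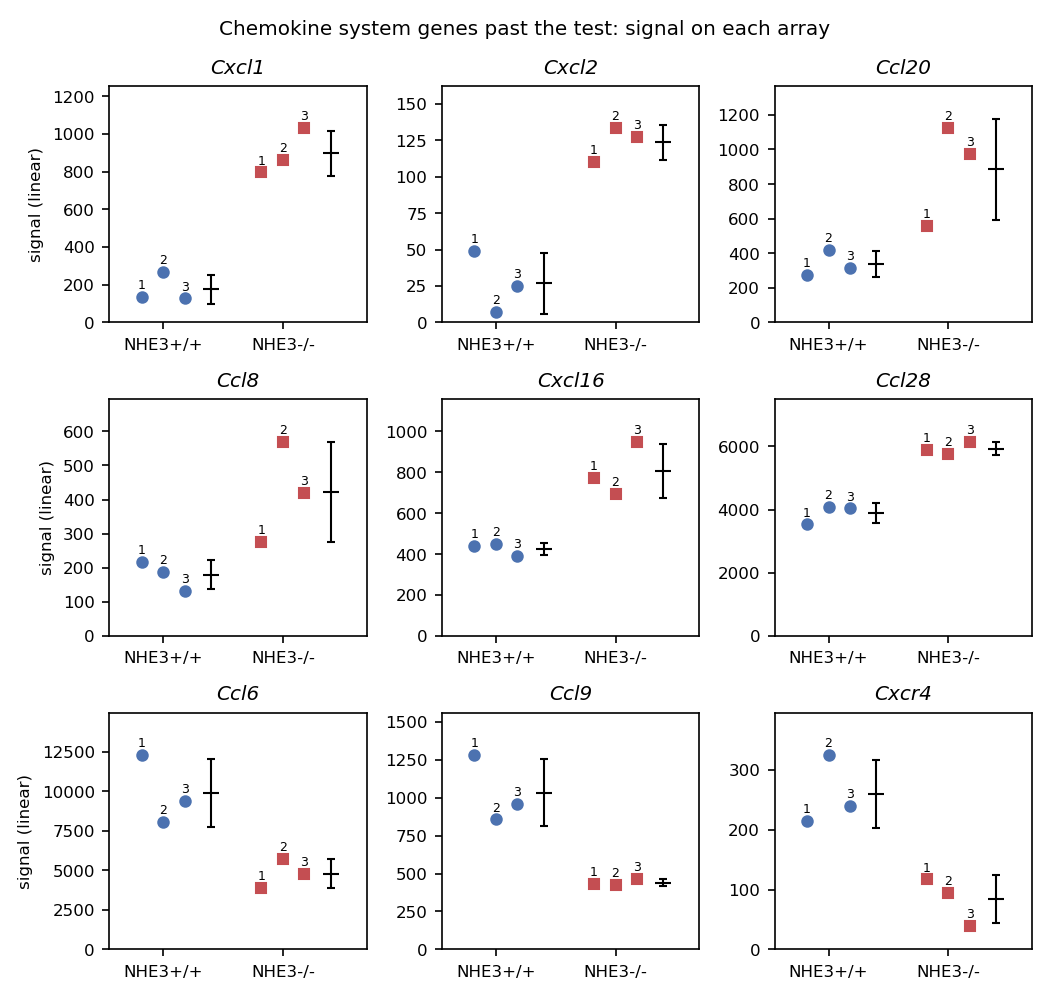
Signal on each array (linear scale) of the 9 genes that passed the test; blue circles are NHE3+/+ arrays and red squares NHE3-/- arrays, numbered by replicate, and the black bar is the mean ± SD of 3 arrays. In each panel the genotypes do not overlap, from Cxcl1 (175 to 896) to Cxcr4 (260 to 83.7).

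Ccl20, the ligand of CCR6 made by epithelium over lymphoid follicles, read 275.0, 420.7 and 317.1 in NHE3+/+ and 559.9, 1123 and 974.2 in NHE3-/- colon. The groups did not overlap, and NHE3-/- array 1 was the lowest of its group. The log2 fold change was 1.28 (SE 0.24, adjusted p = 0.00809), and 1.47 with NHE3-/- array 3 alone. Its receptor Ccr6, carried by B cells and by subsets of T cells and dendritic cells, read 280.4, 477.7 and 262.3 and then 310.0, 152.3 and 180.0. Those groups overlapped, at a log2 fold change of -0.60 with a 95% interval from -1.23 to 0.02 (adjusted p = 0.192). The sequence before the Ccl20 start is shown as that of the ligand that rose outside the chromosome 5 cluster and held the NF-kappaB type motif, here matched on the other strand as GGAAAACCCC, 80 bases before the start (RefSeq, GRCm38.p6, + strand).
Ccl20, chr1:83116516-83116765: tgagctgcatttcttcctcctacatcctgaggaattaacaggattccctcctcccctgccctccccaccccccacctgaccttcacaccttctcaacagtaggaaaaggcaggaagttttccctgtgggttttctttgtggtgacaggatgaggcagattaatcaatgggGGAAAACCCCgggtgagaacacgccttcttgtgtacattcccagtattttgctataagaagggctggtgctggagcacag
Among the 5 higher ligands with a RefSeq window, 3 held the motif.

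Ccl28, a mucosal ligand of CCR10 that draws IgA-secreting plasma cells, was read by 3 probe sets, and all 3 were called higher. The brightest read 3533, 4090 and 4039 in NHE3+/+ and 5878, 5754 and 6149 in NHE3-/- colon. The 3 arrays of each genotype lay close together, at 3887 ± 308 and 5927 ± 202 (SD). The log2 fold change was 0.61 (SE 0.10, adjusted p = 0.00383), and 0.66 with NHE3-/- array 3 alone. The other probe sets gave 0.85 (SE 0.11) and 1.03 (SE 0.11). Its receptor Ccr10 did not pass the filter, at 13.8, 108.9 and 10.4 and then 12.1, 8.2 and 18.1. Of 4 plasma cell markers tested none rose and 1 fell (6.24% of all probe sets did). It was Sdc1, a syndecan that colonic epithelium also carries. The immunoglobulin joining chain Jchain had 5029, 4153 and 4295 in NHE3+/+ and 5869, 9592 and 5579 in NHE3-/- colon (log2 fold change 0.60, adjusted p = 0.0574).

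Cxcl16, a ligand with a membrane-bound form that binds CXCR6 on T cells and innate lymphocytes, read 438.7, 447.9 and 392.1 in NHE3+/+ and 772.7, 694.0 and 948.6 in NHE3-/- colon. The genotypes were clearly apart (log2 fold change 0.86, SE 0.16, adjusted p = 0.00631), with 1.10 for NHE3-/- array 3 alone. Its dimmer probe set gave 0.50 (SE 0.19, adjusted p = 0.118), without overlap of the groups, and was not called. The receptor Cxcr6 read 77.8, 138.5 and 105.1 and then 173.9, 156.4 and 158.5. It also did not overlap between genotypes, at 0.51 with an interval from -0.05 to 1.07 (adjusted p = 0.219). Its dimmer probe set, below the filter, went the other way, at 55.0, 103.3 and 66.9 and then 52.7, 5.7 and 7.9 (-1.07 when fitted without a filter), so no direction is given for Cxcr6. Cytotoxic lymphocyte markers had 1 of 6 tested members higher, beside 4.97% of all probe sets. It was the granzyme Gzma, at 479 ± 67.4 and then 1242 ± 228 (SD, 3 arrays each).

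Ccl8, an inflammatory C-C ligand which in mice binds CCR8, read 216.9, 188.7 and 132.7 in NHE3+/+ and 276.6, 569.6 and 418.9 in NHE3-/- colon. The gap between the genotypes was narrow, since NHE3-/- array 1 lay near NHE3+/+ array 1. The log2 fold change was 1.07 (SE 0.26, adjusted p = 0.0254). The call was lost without NHE3+/+ array 2 (1.11) or 3 (0.90), without NHE3-/- array 2 (0.84) or 3 (1.05), and with NHE3-/- array 3 alone (1.12, adjusted p = 0.0772), and it held in 9 of 15 alternatives. Ccr8 was at the floor, reading from 2.5 to 18.9 over the 6 arrays. The monocyte attractant Ccl7, in the same chromosome 11 cluster with Ccl11 and Ccl12 in between, read 38.8, 58.7 and 24.1 and then 67.4, 425.0 and 104.6. All its NHE3-/- arrays were higher, but array 2 stood far above the others, and the log2 fold change of 1.38 (SE 0.50) did not pass (adjusted p = 0.104). Ccl2, the main ligand of CCR2, had overlapping groups (0.15, interval from -0.85 to 1.15).

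The ligands that fell were Ccl6 and Ccl9, C-C ligands of CCR1 found in rodents and made by myeloid cells and some epithelia. Ccl6 read 12279, 8039 and 9364 in NHE3+/+ and 3911, 5717 and 4766 in NHE3-/- colon. Each NHE3-/- array lay below every NHE3+/+ array (log2 fold change -1.03, SE 0.17, adjusted p = 0.00345), and the other Ccl6 probe set gave -1.16 (SE 0.15). Ccl9 read 1279, 856.6 and 959.1 and then 433.6, 424.0 and 463.4, and its NHE3-/- arrays were nearly level. Its log2 fold change was -1.15 (SE 0.16, adjusted p = 0.00158), while the dimmer probe set gave -0.58 (SE 0.17, adjusted p = 0.0567), without overlap. With NHE3-/- array 3 alone Ccl6 gave -1.03 and Ccl9 -1.08. With the probe set of highest signal, both genes passed in 15 of 15 alternatives of processing and of arrays.

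The receptor Ccr1 had 139.3, 140.0 and 124.6 and then 176.7, 135.3 and 130.0, with overlapping groups (0.10, interval from -0.41 to 0.61). Macrophage and dendritic cell markers are given beside Ccl6 and Ccl9: of 13 tested, 1 rose (4.97% of all probe sets did) and 0 fell. The 1 that rose was Cd14, an endotoxin co-receptor (1.51, SE 0.15). The median log2 fold change of these markers was 0.00. Their summed signal ran from 4669 to 7816 in NHE3+/+ and from 6419 to 8986 in NHE3-/- colon. Without Cd14 the sum ran from 3362 to 6448 and from 3292 to 4144, with overlap. The macrophage receptor Csf1r read 520.4, 1254 and 639.5 and then 588.8, 801.6 and 664.3. The part of these cells in the Ccl6 and Ccl9 difference was not tested.

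Ccl6 and Ccl9 are neighbours within a chromosome 11 cluster that also holds Ccl5, Ccl3 and Ccl4, with no other protein-coding gene between the genes measured. Ccl5, a ligand for T cells and monocytes, read 424.9, 768.2 and 427.3 and then 433.1, 629.1 and 983.8 (0.30, interval from -0.33 to 0.93). Ccl4 read 125.7, 112.4 and 85.5 and then 176.1, 147.9 and 142.5, without overlap but below the threshold (0.43, adjusted p = 0.282). Ccl3 was at the floor, from 6.1 to 21.9 over the 6 arrays. Of the 4 members tested there, the adjacent Ccl9 and Ccl6 fell while the flanking genes had positive values that did not pass. The bases before the starts of the falling pair are shown for comparison with the rising one (RefSeq, GRCm38.p6, - strand). Capitals in Ccl9 mark TGAATCA, a match to the AP-1 type motif TGANTCA beginning 53 bases before the start, and GGAAAGCCCC, an other-strand match to the NF-kappaB type motif at 35 bases.
Ccl9, chr11:83578637-83578886: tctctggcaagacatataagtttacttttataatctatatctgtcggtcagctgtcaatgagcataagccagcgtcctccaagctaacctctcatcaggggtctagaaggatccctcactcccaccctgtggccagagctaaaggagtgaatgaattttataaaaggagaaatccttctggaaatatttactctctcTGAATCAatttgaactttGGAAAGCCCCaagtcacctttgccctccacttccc
Ccl6, chr11:83593088-83593337: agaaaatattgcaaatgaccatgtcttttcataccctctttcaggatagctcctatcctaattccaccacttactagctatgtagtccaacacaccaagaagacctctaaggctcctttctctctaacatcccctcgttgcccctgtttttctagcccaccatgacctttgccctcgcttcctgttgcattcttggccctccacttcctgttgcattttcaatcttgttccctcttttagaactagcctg
Neither motif was in the Ccl6 window, nor was the interferon type motif (TTTC, any 2 bases, TTTC), which 3.44% of all windows held. TGANTCA was in 7.81% of all windows and in 5 of 26 ligand windows. Among the 3 motifs searched, none was in both windows.

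**Figure D3:**
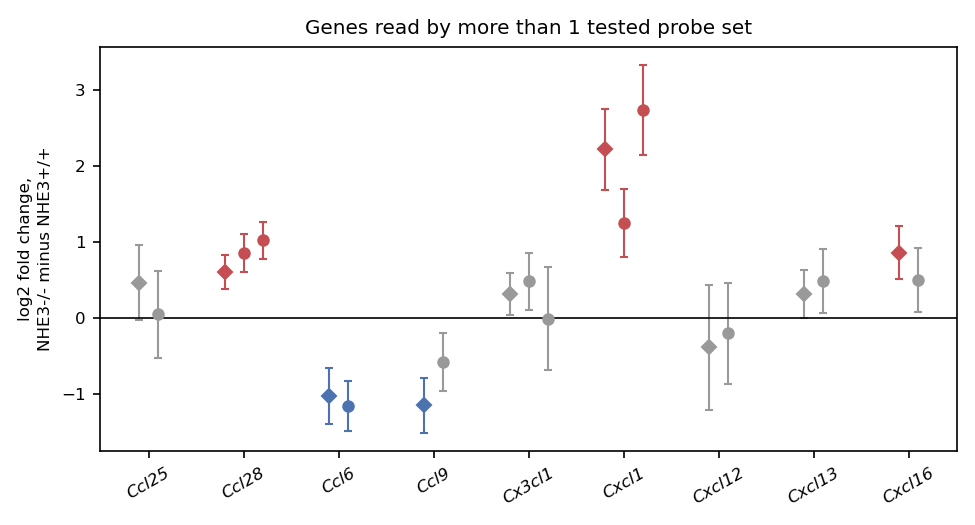
Log2 fold change (NHE3-/- minus NHE3+/+, with 95% limma intervals) of every tested probe set of the ligands read by more than 1; diamonds are the probe sets of highest mean signal, circles the others, red called higher, blue called lower and grey not called. Cxcl1 (2.22, 1.25 and 2.74) and Ccl28 (0.61, 0.85 and 1.03) were called by all 3 of their probe sets, and Ccl9 and Cxcl16 by 1 of 2.

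Interferon-inducible ligands of CXCR3, which draw activated T cells, did not pass the test. Cxcl9 read 65.4, 107.3 and 90.3 and then 104.5, 177.9 and 144.3 (0.54, adjusted p = 0.242). Cxcl10 read 269.7, 187.4 and 178.1 and then 124.7, 312.9 and 216.4, with the NHE3-/- arrays on both sides of the others (-0.02, interval from -0.66 to 0.63). Cxcl11 read 236.9, 145.3 and 255.6 and then 8.5, 225.0 and 203.0, where NHE3-/- array 1 stood far below the other arrays (-0.83, adjusted p = 0.387). The receptor Cxcr3 had overlapping groups (0.15, interval from -0.40 to 0.70).

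Of the ligands known for constitutive production, Cxcl13, Cxcl12, Ccl25 and Cx3cl1 did not pass. Cxcl13, which organises B cell follicles, read 836.8, 940.1 and 914.8 and then 1290, 1182 and 927.9 (0.32, adjusted p = 0.186). Cxcl12, the stromal ligand of CXCR4, read 238.7, 516.0 and 194.2 and then 122.3, 214.5 and 360.2, with wide spread in both genotypes (-0.39, interval from -1.22 to 0.44). Of its other probe sets, 1 below the filter was lower without overlap, at 83.7, 170.4 and 36.6 and then 10.5, 23.6 and 23.2 (-1.22 when fitted without a filter, adjusted p = 0.139), and the other gave -0.20. Ccl25, the gut ligand of CCR9, read 372.0, 246.0 and 226.8 and then 417.0, 308.5 and 466.7 (0.46, adjusted p = 0.205). Ccr9 did not pass the filter on any of its 5 probe sets. Of these, 1 was higher without overlap, at 2.5, 9.8 and 3.4 and then 65.0, 25.3 and 54.0. It gave 1.09 when fitted by limma without a filter (adjusted p = 0.0611), and the others overlapped. Cx3cl1, the membrane-tethered ligand of CX3CR1, read 757.6, 744.6 and 795.5 and then 918.7, 912.3 and 1042, which do not overlap but did not pass (0.31, SE 0.13, adjusted p = 0.140), and its second probe set gave 0.48 (adjusted p = 0.0944). The dimmest of the 3 tested Cx3cl1 probe sets gave -0.01. The receptor Cx3cr1 of resident macrophages gave -0.20 (interval from -0.78 to 0.37).

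The receptor that fell, Cxcr4, holds lymphocytes and progenitors near sources of CXCL12. It read 215.4, 324.5 and 240.2 in NHE3+/+ and 117.1, 94.8 and 39.3 in NHE3-/- colon. NHE3+/+ array 2 was the highest and NHE3-/- array 3 the lowest, and the genotypes did not overlap. The log2 fold change was -1.39 (SE 0.31, adjusted p = 0.0159), and -2.03 with NHE3-/- array 3 alone. Without NHE3+/+ array 2 it was -1.24 and no longer called (adjusted p = 0.0712).

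Receptors of lymphoid follicles were highest on the same NHE3+/+ array. Cxcr5, the receptor for CXCL13 on B cells and follicular helper T cells, read 162.9, 259.2 and 132.4 and then 150.1, 75.7 and 99.7 (-0.62, interval from -1.28 to 0.04, adjusted p = 0.205). Ccr7, which guides cells to lymphoid tissue, did not pass the filter but read 49.4, 166.3 and 27.9 and then 14.4, 3.9 and 12.0, without overlap. B cell markers are given beside these receptors. Of 8 tested, 6 were lower and 0 higher at an unadjusted limma p under 0.05, a level without a share for all probe sets here. After adjustment 1 fell (6.24% of all probe sets did) and 0 rose, and the median log2 fold change of the 8 was -1.11. The one that fell was Fcer2a, the low-affinity IgE receptor, at 144.8, 565.8 and 339.2 and then 70.9, 24.0 and 75.3, and its NHE3-/- mean lay below the filter, so that it was tested through the NHE3+/+ arrays. The summed B cell signal ran from 1849 to 4949 in NHE3+/+ and from 856.2 to 2039 in NHE3-/- colon. Ms4a1, which encodes CD20, read 408.4, 1161 and 587.2 and then 526.5, 202.4 and 98.9, with overlapping groups, and was not called. Its highest array was NHE3+/+ array 2 and its lowest NHE3-/- array 3, as for Cxcr4. Not every marker had this order. Fcer2a was lowest on NHE3-/- array 2, and Pax5, alone of those tested in having a positive value (0.16), was highest on NHE3-/- array 3. The number of B cell markers called lower was between 0 and 5 over the alternatives and 3 with NHE3-/- array 3 alone. T cell markers had 0 of 8 tested called by limma in either direction (0 higher and 0 lower at an unadjusted p under 0.05), with a median of -0.28 and summed signals from 857 to 2077 in NHE3+/+ and from 1044 to 1143 in NHE3-/- colon. The part of B or T cells in the Cxcr4 difference was not tested.

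The remaining receptors tested, Ccr2 of monocytes and Ccr4 of helper T cells, had overlapping groups (0.14 and -0.09). The 8 receptors below the filter were Ccr10, Ccr1l1, Ccr3, Ccr7, Ccr8, Ccr9, Cxcr2 and Xcr1, the highest single reading among them being the 166.3 of Ccr7. The 10 ligands below it were Ccl1, Ccl3, Ccl11, Ccl12, Ccl22, Ccl24, Ccl27a, Cxcl3, Cxcl5 and Cxcl15, at 112 or less on every array. Fitted without a filter, none of these 18 genes passed. The other ligands tested without a call were Ccl17, Cxcl14, Cxcl17 and Xcl1, with log2 fold changes from -0.36 to 0.61 and overlapping groups.

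Chemokine system genes named otherwise did not pass either. Of 10 tested of a list of 13, which holds the platelet chemokines Pf4 and Ppbp, the atypical scavenging receptors Ackr1 to Ackr4 and Ccrl2, 0 rose and 0 fell by limma (0 higher and 0 lower at an unadjusted p under 0.05), with a median log2 fold change of 0.07. The atypical receptor Ackr3, which also binds CXCL12, gave -0.04, and Ackr2, which takes up inflammatory C-C ligands, 0.37.

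Of 37 signalling genes behind the receptors that were tested, 5 rose (4.97% of all probe sets did) and 5 fell (6.24% of all). Over the alternatives 1 to 5 were higher and 1 to 6 lower, and with NHE3-/- array 3 alone 4 were higher and 1 lower. Rgs16, a regulator that shortens G protein signals, had the largest log2 fold change of these, 1.91 (SE 0.37), from 46.6, 56.9 and 11.8 to 131.3, 242.2 and 322.9. Its NHE3+/+ mean lay below the filter, so it entered the test through the NHE3-/- arrays. Gng12, a G protein gamma subunit, rose by 0.68 (SE 0.11). Rgs13, a regulator known from germinal centre B cells and mast cells, gave -1.50 (SE 0.30), from 362.7, 373.2 and 555.6 to 148.1, 199.0 and 69.6. Tiam1, an activator of the GTPase Rac, gave -1.01 (SE 0.27), and the receptor kinases Grk3 and Grk6 and the arrestin Arrb1 were also lower. The median of the list was -0.08, near the -0.10 of all probe sets.

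Among cytokines and NF-kappaB factors that can induce chemokines, 5 of 14 tested rose (4.97% of all probe sets did) and 0 fell by limma (1 at an unadjusted p under 0.05), with a median log2 fold change of 0.43. These were the feedback inhibitors Tnfaip3 (1.09, SE 0.13) and Nfkbia (0.67, SE 0.11), Relb, Nfkbiz and Irf1. The list was drawn up with results of these arrays known, so its direction is not independent evidence. Between 1 and 6 members rose over the alternatives, and 2 with NHE3-/- array 3 alone. The inducers Il1b and Tnf themselves did not pass: Il1b read 89.3, 98.4 and 61.0 and then 186.1, 134.8 and 205.0 (0.85, adjusted p = 0.0641), and Tnf 18.6, 230.3 and 58.3 and then 312.3, 157.6 and 202.4.

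Among genes that cut or hold chemokines, 2 of 10 tested rose (4.97% of all probe sets did) and 2 fell (6.24% of all). Over the alternatives 0 to 3 were higher and 0 to 2 lower, and with NHE3-/- array 3 alone 1 each way. Those that rose were the protease Mmp7, at a log2 fold change of 1.59 (SE 0.45), and the dipeptidyl peptidase Dpp4, which trims several chemokines, at 0.49 (SE 0.12), from 1081, 962.1 and 1055 to 1349, 1595 and 1442. The heparan sulfate carriers Sdc4 (-1.24, SE 0.27) and Sdc1 (-0.43, SE 0.11) fell. Sdc4 read 11425, 15031 and 10938 and then 6334, 7336 and 3022.

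**Figure D4:**
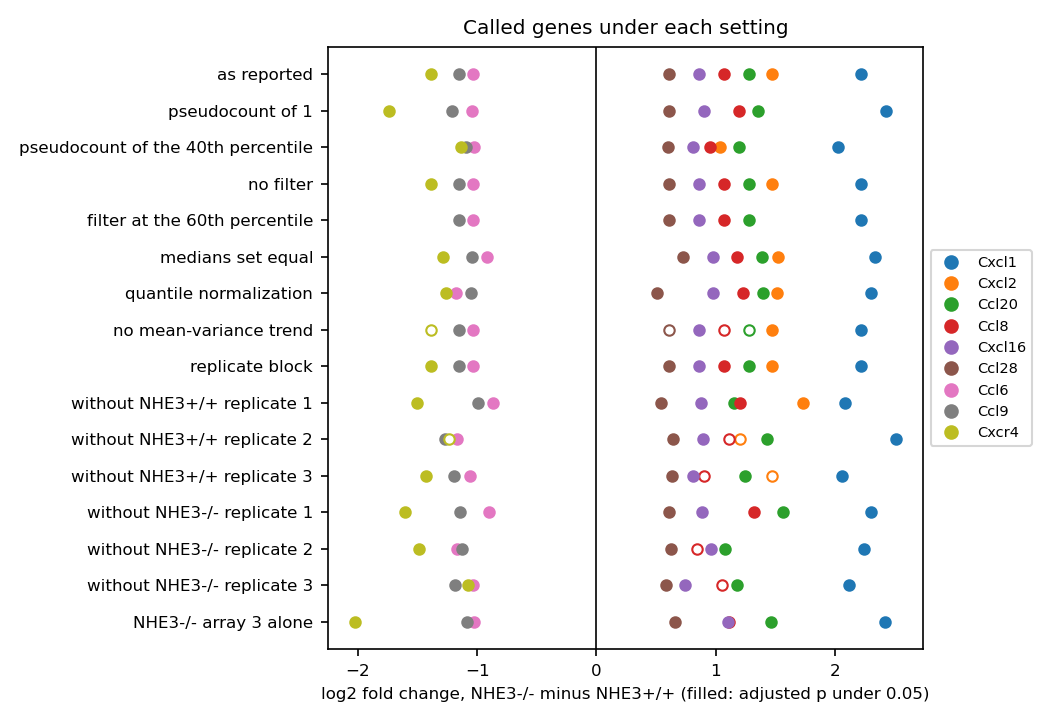
Log2 fold change (NHE3-/- minus NHE3+/+) of the 9 called genes under each setting that keeps 1 probe set a gene, the one of highest mean signal, with filled points where the adjusted p is under 0.05; a missing point means that the gene fell below that setting's filter. No gene changes sign in these fits; Cxcl1, Cxcl16, Ccl6 and Ccl9 are filled in all of these, while Ccl8, Cxcl2 and Cxcr4 have several open or missing points and Ccl20 and Ccl28 are open without the mean-variance trend.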

How the data were processed

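The authors deposited linear intensity values, 1 signal per probe set, for 6 single-label arrays. The submitters' processing notes name GCOS, with no version. Neither settings nor detection calls are given in the sources used here. Each array's mean after trimming 2% at each end is 500.00, so the arrays were scaled alike and a shift of total RNA cannot be seen. No read depth applies to arrays, and their number limits the precision.

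Signals were taken as log2(signal + 31.4), with the 25th percentile of all values as pseudocount. Left out were 64 array controls and all probe sets whose mean on this scale fell short of 6.52, its 40th percentile. NHE3-/- was compared with NHE3+/+ over the 27024 probe sets left by limma 3.58.1 in R 4.3.3 (lmFit, eBayes with a mean-variance trend, two-sided), genotype being the only term. Adjustment was by Benjamini-Hochberg over all 27024, with a threshold of 0.05. The fit was tested on simulated data. Errors are limma's standard errors (SE). Levels of different probe sets were not tested against each other. They were only ranked, to choose probe sets and genes to name, and summed over marker lists.

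Gene names came from the platform annotation, with gene IDs of all 78 probe sets matched to RefSeq GRCm38.p6, which also gave gene order and promoters. Members, lists and tests were chosen with earlier results of these data known. Named were called genes, the 6 ligands and 4 receptors of highest mean signal, partners of called genes, genes whose probe sets disagreed and the largest changes of each list; further ligands and receptors were named to account for every gene. Replicate numbers do not pair the arrays.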

Additional observations from a re-analysis of the deposited data

How the results depend on the processing

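Alternatives were 2 other pseudocounts, no filter or one at the 60th percentile, medians set equal, quantile normalization, no mean-variance trend, a replicate block, each array left out in turn, NHE3-/- array 3 alone and the dimmest probe set of a gene. No called gene changed direction. Of 454 log2 fold changes of single genes recomputed, 442 kept their side of the threshold. Most of the 454 belong to genes that were not called, and the 12 that changed side were all lost calls. Fits in which a gene fell below the filter are not counted. Without the mean-variance trend 3 ligands rose and 0 receptors fell, Ccl20 (1.28), Ccl28 (0.61), Ccl8 (1.07) and Cxcr4 (-1.39) having adjusted p from 0.0519 to 0.0787; over all probe sets 511 were then higher and 558 lower. With the dimmest probe set 5 ligands rose and 1 fell, Cxcl16 (0.50) and Ccl9 (-0.58) losing their calls. The values of all further probe sets of a gene were added after seeing the data. At the 60th percentile 0 receptors fell, since Cxcr4 was not tested. With a pseudocount of 1 Cxcl2 was not tested.

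Leaving out 1 array gave 4 to 6 ligands higher, 2 lower, 0 receptors higher and 0 to 1 lower (0 without NHE3+/+ array 2). Over all probe sets these fits gave 820 to 1212 higher and 765 to 1372 lower, and NHE3-/- array 3 alone 752 higher, with 4 ligands higher, 2 lower and 1 receptor lower. With medians set equal 738 probe sets were lower. With the replicate block 6 ligands were higher and 2 lower, as without it, although same-numbered arrays did not deviate together (correlations of deviations 0.03, -0.04 and 0.00). In the gene lists, 88 of 570 counts moved by more than 1.5 times. Dim signal limits the 18 genes below the filter: for them a difference could not be measured, and absence is not shown. The cause of the lost calls was not tested.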

Other observations

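The marker counts that follow stand beside 4.97% of all probe sets tested called higher and 6.24% called lower. Mast cell markers had 2 of 5 tested members higher and 1 lower (group means of 3 arrays are given). Higher were the mucosal proteases Mcpt1 (115 to 958.4) and Mcpt2 (148 to 661). The stem cell factor receptor Kit was lower (1216 to 548). Smooth muscle, fibroblast and endothelial markers had 0 of 5, 0 of 7 and 0 of 4 tested members called by limma in either direction (also 0 at an unadjusted p under 0.05). Enteric neuron and glia markers had 0 of 2 and eosinophil markers 0 of 1 called. Of the 12 colonic epithelium markers 1 was higher (Vil1) and 2 lower (Krt18 and Cdx2). Adipose markers had 1 higher and 3 lower of 4 (Adipoq, among the lower, passed the filter through the NHE3+/+ arrays), and pancreas markers 0 higher and 1 lower of 4, the summed adipose signal running from 1594 to 5925 in NHE3+/+ and from 722 to 1300 in NHE3-/- colon.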
